A study of Arabidopsis thaliana with 57 samples.

Results

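Arabidopsis leaves hold a circadian clock whose morning part is built from a small set of transcription factors, and the transcripts of 10 of its genes are described here in leaves that touch other plants and in leaves of plants given a pulse of strong light. The members were listed by name: LHY (AT1G01060), CCA1 (AT2G46830), RVE1 (AT5G17300), RVE4 (AT5G02840), RVE6 (AT5G52660), RVE8 (AT3G09600), PRR9 (AT2G46790), PRR7 (AT5G02810), LNK1 (AT5G64170) and LNK2 (AT3G54500). They are 10 of the 32824 genes listed, and all 10 passed the filter on low values in both tables. RNA sequencing had been made on 57 leaf libraries in 19 groups of 3, each library from leaves of 10 to 15 pooled plants, with values given as FPKM (fragments scaled to transcript length and to the library's mapped fragments). All plants were grown on peat pellets in weak light (50 µmol photons per m2 and s) for 10 h a day at 22 °C, with nights of 14 h at 20 °C, until 4 to 5 weeks old.

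In the contact experiment, wild-type Col-0 plants stood alone (individual) or had touched other plants for 1 h or for 1 week, with no stress. In the chain experiment, 3 plants touched in a row: wild type throughout in the 3WT chain, or with an hpca1-1 mutant between wild-type neighbours in the WT-hpca1-WT chain. HPCA1 encodes a receptor kinase that senses hydrogen peroxide outside the cell. One leaf, here called local, was put under elevated light (2000 µmol photons per m2 and s) for 30 min or kept in control light, and RNA came from it and from the systemic leaves numbered 1, 2 and 3 (S1, S2 and S3). By its labels, the S2 leaf was the hpca1-1 one in the chain with the mutant, and all the others were Col-0 wild type. Touching leaves, chains in control light included, carried a solution of phosphate buffer, the wetting agent Silwet L-77 and agarose, which individual plants did not, so contact and solution cannot be told apart. The labels do not give the time of day at which leaves were taken, so a difference in sampling time between groups cannot be told apart from the treatment, a limit that bears on every comparison of clock genes below.

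CCA1 and LHY are related MYB-like transcription factors whose transcripts peak around dawn and which repress genes of the evening. RVE4, RVE6 and RVE8 belong to the same protein family but activate evening genes, together with their coactivators LNK1 and LNK2. PRR9 and PRR7 are pseudo-response regulators that follow in the morning and towards midday and repress CCA1 and LHY. RVE1, another member of the family, is known as an output of the clock that acts on auxin synthesis and growth. Light resets this clock, and several of its morning genes are known to respond to light directly.

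The stretches of promoter that hold shared motifs are shown first, because 8 of the 10 members share a short sequence near their start. The G-box, CACGTG, is a palindrome bound by basic helix-loop-helix and basic leucine zipper factors, among them factors of light signalling. It was present between 250 bases before and 50 bases after the annotated start in 8 of 10 members, all but RVE4 and RVE6. Of the 27443 such windows around the annotated starts of protein-coding genes, 7.68% held it. The sequences come from the TAIR10.1 genome with its annotation, are written 5′ to 3′ on the strand of the gene, and have the motif in capitals. They show the G-box of LHY (chr1:37906-37991, minus strand), CCA1 (chr2:19245358-19245443, plus strand), RVE1 (chr5:5693058-5693143, minus strand), PRR9 with 2 boxes (chr2:19232357-19232480, plus strand) and PRR7 (chr5:642186-642271, minus strand), and the CCA1 binding site AAAAATCT of RVE6 (chr5:21362284-21362371, minus strand).
LHY: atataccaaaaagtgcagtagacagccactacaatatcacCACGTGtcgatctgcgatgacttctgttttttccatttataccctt
CCA1: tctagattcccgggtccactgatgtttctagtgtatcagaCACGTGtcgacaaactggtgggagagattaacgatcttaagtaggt
RVE1: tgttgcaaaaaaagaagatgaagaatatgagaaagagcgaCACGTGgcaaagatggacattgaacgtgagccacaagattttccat
PRR9: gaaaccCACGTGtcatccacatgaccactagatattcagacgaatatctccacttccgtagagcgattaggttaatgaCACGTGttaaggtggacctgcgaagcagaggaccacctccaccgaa
PRR7: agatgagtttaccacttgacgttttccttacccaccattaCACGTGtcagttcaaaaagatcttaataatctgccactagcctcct
RVE6: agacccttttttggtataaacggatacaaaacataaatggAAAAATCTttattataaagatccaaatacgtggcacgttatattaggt

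The box of LHY lay 80 to 75 bases before the gene start, that of RVE1 111 to 106 bases before it and that of CCA1 193 to 188 bases before it. In LNK1 it spanned the start itself, and in RVE8 and LNK2 it lay within the first 50 bases of the gene. PRR7, which moved against the other members in strong light, held the same box 201 to 196 bases before its start. The evening element AAAATATCT, the site that CCA1-like proteins bind in evening genes, was found in the same window of 1 member, PRR9, at bases 27 to 35 of the gene, and in 2.82% of all windows. The CCA1 binding site AAAAATCT was found in RVE6 alone among the members and in 7.88% of all windows. Matches were searched on both strands, the last 8 letters of the evening element, AAATATCT, gave the same single member against 5.65% of windows, and a match is a description of letters, not of binding.

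**Figure D1:**
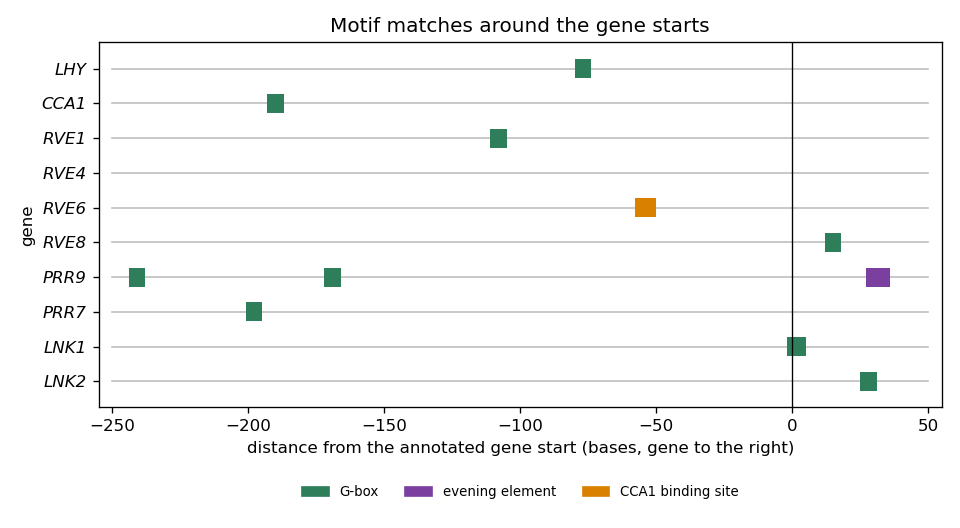
Positions of motif matches in the window from 250 bases before to 50 bases after the annotated start of each member (x axis, bases from the start; y axis, gene; coloured blocks, matches). The G-box occurs in 8 of 10 members, and RVE4 has no match to any of the 3 motifs.

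The libraries were of leaf tissue by their markers. Summed over 5 leaf genes, the level ran from 41977 to 55214 FPKM, and flower markers summed to at most 1.02 FPKM in any library. Root markers summed to between 0.109 and 42.4 FPKM, nearly all from PYK10, with EXPA7 at 0 in every library. PYK10 moved with some groups: in the 3WT local leaf it was at 33.4 to 42.4 FPKM in control light and 10.5 to 12.5 in elevated light, and its part in the results was not tested. HPCA1 was at 24.2 to 33.3 FPKM in the 6 hpca1-1 libraries and at 43.4 to 61.4 in the other 42 chain libraries. Within the chains the transcript was thus lower in the mutant, as labelled, but present. The contact libraries, all wild type and normalized separately, held 24.2 to 32.3 FPKM, much like the mutant leaves. Fragment totals are not given, and relative depth, estimated from the steps between low values, spanned 0.804 to 1.24 in the contact table and 0.806 to 1.35 in the chain table. Replicate 3 of S3 in control light of the WT-hpca1-WT chain stood apart from its group, and the results on members and evening genes at S3 of that chain are also given without it. PRR9 shares 920 bases at 99.6% identity with AT2G46670 on chromosome 2 (19164311 to 19165230), so reads could have been split between them, and its values are uncertain to that extent. RVE1, LNK1 and LNK2 overlap genes on the opposite strand by 225, 245 and 266 bases, and whether counting used strand is not given in the sources used here.

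Per length, LNK2 was the most abundant member in every group, with group means of 173.9 to 232.7 FPKM in the chains and 199.6 to 202.7 in the contact experiment. LNK1, CCA1, RVE4 and PRR7 lay between 43.4 and 78.4 FPKM in the chain groups, and LHY between 36.2 and 64.5. PRR9 (16.5 to 24.9 FPKM), RVE8 (18.2 to 26.2), RVE6 (9.26 to 12.0) and RVE1 (5.17 to 18.5) were the lowest. On TAIR10.1 PRR7 (chr5:637681-642030) and RVE4 (chr5:648648-651979) lie close together on chromosome 5, as do PRR9 (chr2:19232607-19235179) and CCA1 (chr2:19245591-19248915) on chromosome 2, and the rest are spread over chromosomes 1, 3 and 5. The members differed in how far they ranged over the 16 chain groups: the highest group mean was 3.58 times the lowest for RVE1, 1.78 times for LHY, 1.59 times for CCA1, 1.51 times for PRR9 and 1.24 times for RVE4.

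The comparison of elevated with control light asks how the morning clock genes of the lit leaf, and of leaves farther along the chain, stood after the pulse. In every one of the 7 wild-type leaves LHY, CCA1, RVE1, PRR9 and LNK1 rose, with log2 fold changes between 0.11 and 1.66. PRR7 fell in 5 of these leaves, where 14.1% to 48.9% of all genes were called lower, and rose in none. RVE8 and LNK2 rose in 6 of 7, and RVE4 and RVE6 in 4 of 7 each. Of all genes, 20.3% were called in either direction in at least 5 of the 8 light comparisons, the hpca1-1 leaf included. The shares of all genes with 4, 5 or 6 calls in 1 direction over the 7 leaves were not computed. After scaling by the median of ratios, which sets the median change of all genes near 0, RVE8 and LNK2 rose in 7 of 7 and RVE4 and RVE6 in 5 of 7 each. In the lit leaf of the 3WT chain 9 of 10 members were called (8 higher, 1 lower), against 59.3% of the 18735 genes tested, of which most fell: 14% were called higher and 45.3% lower. In the lit leaf of the WT-hpca1-WT chain all 10 were called (9 higher, 1 lower), against 62.5% of all genes, 13.6% higher and 48.9% lower. A gene counts as called at a limma adjusted p under 0.05, and changes are differences of log2(FPKM + 1). Where libraries are said below not to overlap between conditions, the share of all genes without overlap was not computed.

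LHY, one of the pair of dawn repressors, was at 35.0, 37.3 and 36.2 FPKM in the control local leaves of the 3WT chain, and the lit ones held 55.3, 56.0 and 54.8. The lit libraries all lay above the control ones, a log2 fold change of 0.60 ± 0.04 (SE; adjusted p in limma 3.58e-14). In the WT-hpca1-WT chain the local leaf gave 34.8, 37.7 and 37.2 FPKM in control and 61.2, 60.2 and 59.7 in elevated light, a change of 0.71 ± 0.04 (SE; adjusted p in limma 2.61e-16). Over all 42 wild-type libraries of the chains LHY did not overlap between light conditions: it ran from 34.8 to 43.3 FPKM in control light and from 51.4 to 67.5 in elevated light. Among the leaves away from the light, the rise was largest at S1 of the WT-hpca1-WT chain, from 42.1, 41.4 and 40.7 to 67.5, 63.3 and 62.6 FPKM, with a log2 fold change of 0.63 ± 0.04 (SE). Ordered by group mean, the 7 wild-type groups of elevated light took the first 7 of 16 places for LHY, with the hpca1-1 leaf of elevated light next. From that leaf down to the lowest group each group overlapped its neighbour in the order.

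CCA1, the partner of LHY, stood at 44.2, 42.7 and 43.2 FPKM in control and 68.8, 70.2 and 67.3 in lit local leaves of the 3WT chain, and the lit libraries were all higher. Its log2 fold change there was 0.65 ± 0.04 (SE; adjusted p in limma 5.13e-16), and 0.51 ± 0.04 (SE; adjusted p in limma 4.35e-13) in the local leaf of the other chain. The rise of CCA1 was smaller in the systemic leaves, with log2 fold changes of 0.37, 0.22 and 0.23 at leaves 1, 2 and 3 of the 3WT chain and 0.19 and 0.22 at leaves 1 and 3 of the WT-hpca1-WT chain, while those of LHY at the same leaves were 0.45, 0.47, 0.39, 0.63 and 0.52. The difference between the 2 genes was not tested. CCA1 libraries of control light reached 57.5 FPKM, at S1 of the WT-hpca1-WT chain, above the lowest library of elevated light at 56.1 FPKM, so that across all wild-type leaves the conditions overlapped slightly although within each leaf position they did not.

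RVE1, the output factor linked to auxin and growth, changed most of all members. In the 3WT chain its 3 control local leaves held 5.13, 5.48 and 5.78 FPKM and the lit ones 13.6, 14.2 and 15.1, a log2 fold change of 1.25 ± 0.09 (SE; adjusted p in limma 2.72e-15). In the WT-hpca1-WT chain the same leaves held 5.96, 4.91 and 4.63 and 18.2, 19.8 and 17.4 FPKM, a change of 1.66 ± 0.09 (SE; adjusted p in limma 4.42e-19). Lit leaves were far above the controls in both chains without overlap. At the 5 wild-type systemic leaves the log2 fold changes lay between 0.53 and 1.01, and in the 42 wild-type libraries the highest value in control light, 7.15 FPKM, was below the lowest in elevated light, 8.14 FPKM.

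**Figure D2:**
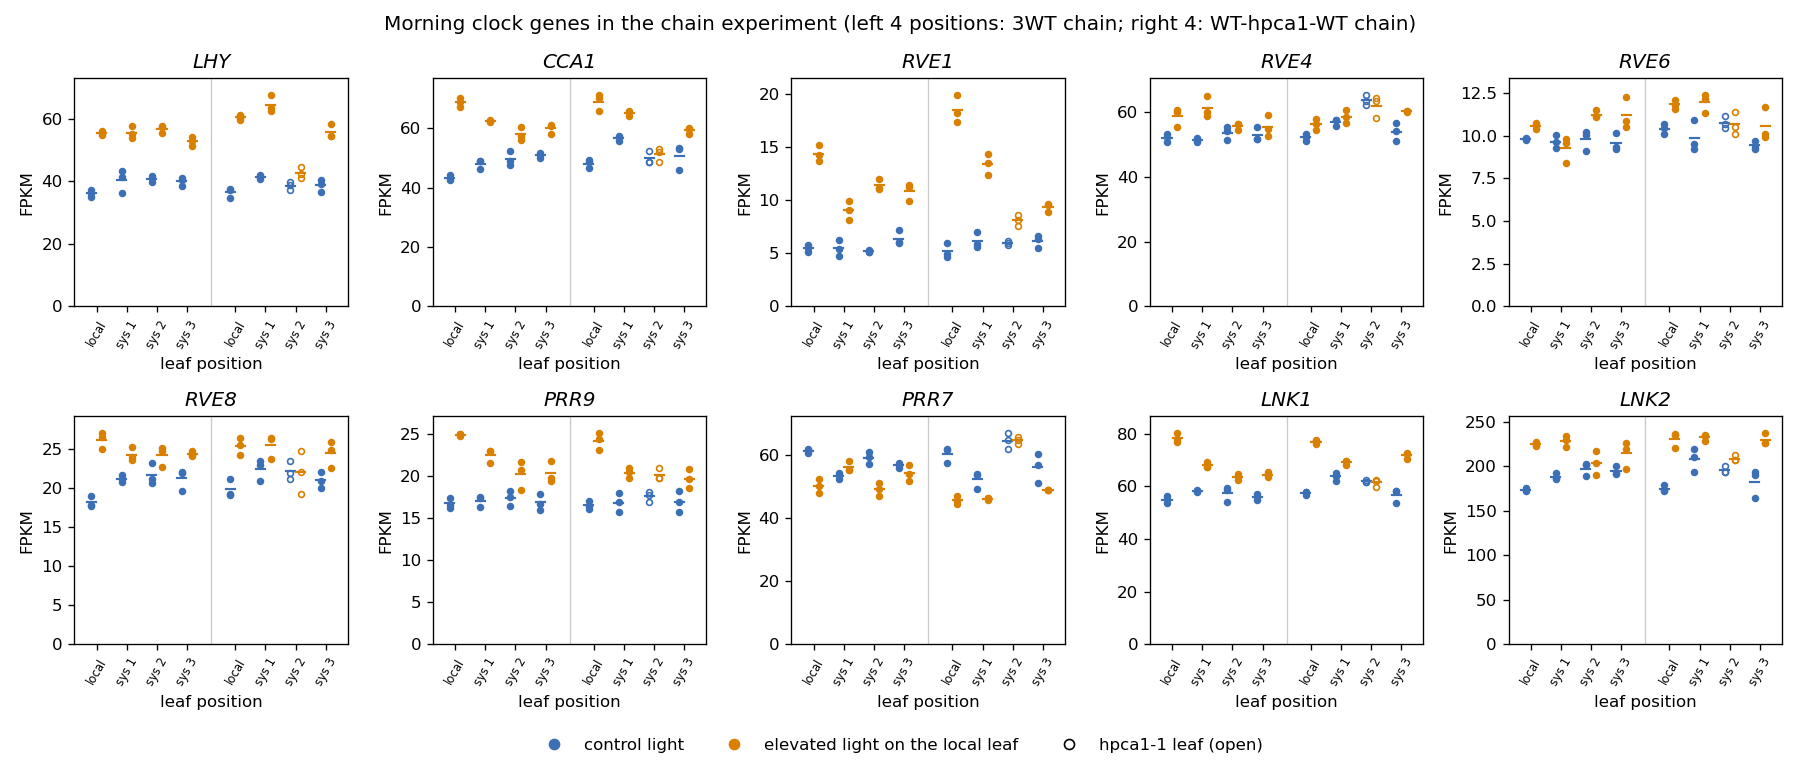
FPKM of each member (y axes, starting at 0) at the 4 leaf positions of the 3WT chain (left of each panel) and the WT-hpca1-WT chain (right); points are libraries, bars are means of 3, blue is control and orange elevated light on the local leaf, open symbols the hpca1-1 leaf. LHY, RVE1 and PRR9 separate by light at every position, LHY only narrowly at the hpca1-1 leaf, where its means are 38.6 and 42.8 FPKM.

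The activators of evening genes responded less evenly. RVE8 rose in the lit leaves, from 17.9, 19.0 and 17.7 to 25.1, 27.1 and 26.6 FPKM in the 3WT chain, where it changed by 0.51 ± 0.06 (SE; adjusted p in limma 2.27e-08), and by 0.34 in the WT-hpca1-WT chain. Its changes at systemic leaves were between 0.15 and 0.21 in wild-type leaves. They lay close to the threshold: at S1 of the 3WT chain the adjusted p was 0.0462 by limma and the call was lost with any 1 of 6 libraries left out, with values of 0.16 to 0.21. At S3 of that chain it was lost without any of 4 libraries, control replicate 1 (0.14) and the 3 of elevated light (0.18 to 0.20). RVE4 moved little, with a change of 0.25 ± 0.04 (SE; adjusted p in limma 3.02e-05) at S1 of the 3WT chain, where control libraries were at 52.0, 51.2 and 50.7 FPKM and those of elevated light at 59.97, 64.9 and 58.7. After median-of-ratios scaling its change was 0.25 there, below the 0.36 and 0.32 in the lit leaves of the 3WT and WT-hpca1-WT chains. RVE6, the least abundant of these activators, rose at S1 of the WT-hpca1-WT chain, from 9.49, 10.9 and 9.21 to 12.4, 11.3 and 12.2 FPKM, by 0.26 ± 0.06 (SE; adjusted p in limma 0.000775); scaled in that way it changed by 0.32 there and by 0.37 in the lit leaf of the same chain.

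LNK1, a coactivator of the RVE8 group, went from 53.6, 55.3 and 56.2 to 77.0, 80.3 and 78.1 FPKM in the lit leaf of the 3WT chain, without overlap and with a change of 0.50 ± 0.03 (SE; adjusted p in limma 2.01e-17). In the lit leaf of the WT-hpca1-WT chain it changed by 0.42 ± 0.03 (SE), and at wild-type systemic leaves by 0.11 to 0.34. LNK2, its paralogue, rose from 173, 176 and 172 to 223, 227 and 224 FPKM in the same 3WT leaves, a change of 0.37 ± 0.05 (SE; adjusted p in limma 3.26e-08). All lit libraries of LNK2 there were above all controls. LNK2 did not pass the threshold at S2 of the 3WT chain (0.04 ± 0.05, SE; adjusted p in limma 0.478; 95% interval -0.05 to 0.14), but was called there after median-of-ratios scaling, at 0.18 (limma adjusted p = 0.0011). At S3 of that chain it passed with a change of 0.14 whose libraries overlapped, and without control replicate 1 or 2 or elevated-light replicate 2 or 3 it no longer passed, with values of 0.12, 0.13, 0.10 and 0.12.

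PRR9 and PRR7, which repress CCA1 and LHY in turn, went in opposite directions. PRR9 was even across the control leaves, with group means of 16.5 to 17.6 FPKM, and rose in the lit leaf of the 3WT chain from 16.2, 17.4 and 16.6 to 24.8, 25.0 and 24.9 FPKM, by 0.55 ± 0.06 (SE; adjusted p in limma 1.32e-10). The near copy AT2G46670 moved with it, from a mean of 7.96 to 11.95 FPKM in that leaf. PRR7 fell in the same leaf from 61.9, 60.5 and 61.6 to 50.0, 52.3 and 47.7 FPKM, a change of -0.29 ± 0.04 (SE; adjusted p in limma 5.84e-07), and in the lit leaf of the other chain from 61.4, 57.3 and 61.7 to 47.1, 45.3 and 44.4, a change of -0.39 ± 0.04 (SE; adjusted p in limma 8.92e-10). No library of PRR7 overlapped between conditions in these leaves. In the 3WT chain PRR7 also fell at S2 (-0.26), whereas the values at S1 and S3 were 0.07 ± 0.04 (SE; adjusted p in limma 0.356; 95% interval -0.02 to 0.16) and -0.07 ± 0.04 (SE; adjusted p in limma 0.314; 95% interval -0.16 to 0.02). In the WT-hpca1-WT chain it fell at S1 and S3, with log2 fold changes of -0.18 and -0.19.

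The median of all tested genes itself moved by -0.16 in the lit leaf of the 3WT chain, -0.19 in that of the WT-hpca1-WT chain and -0.12 at S2 of the 3WT chain. Relative to a scaling by the median of ratios, which sets these medians near 0, PRR7 changed by -0.10, -0.18 and -0.13 in those leaves and stayed called, and the rises of the other members were larger, for example 0.79 for LHY and 1.42 for RVE1 in the 3WT lit leaf. No called member changed direction under this scaling or under quantile normalization. The scaling also moved the balance of all called genes: the share that was lower went from 76.3% to 44.2% in the lit leaf of the 3WT chain, from 78.2% to 47.1% in that of the other, from 79.3% to 46.1% and 61.6% to 47.3% at S2 and S3 of the 3WT chain, and from 68.4% to 48.7% and 65.3% to 48.4% at S1 and S2 of the WT-hpca1-WT chain.

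At the systemic leaves, 8 of 10 members were called at leaf 1 of the 3WT chain (8 higher), against 14.8% of all genes (7.18% higher, 7.58% lower). At leaf 2 it was 7 (6 higher, 1 lower; all 10 after median-of-ratios scaling, 9 higher and 1 lower), against 41.2% (8.55% higher, 32.7% lower), and at leaf 3 it was 8 (8 higher), against 23% (8.81% higher, 14.1% lower). In the WT-hpca1-WT chain 9 were called at leaf 1 (8 higher, 1 lower), against 29.5% (9.31% higher, 20.1% lower), and 9 at leaf 3 (8 higher, 1 lower), against 27.5% (13.4% higher, 14.1% lower). LHY, RVE1 and PRR9 were higher in all 8 light comparisons, as were 0.395% of all tested genes, and with CCA1 and LNK1 5 members were higher in all 7 comparisons of wild-type leaves, as were 0.619% of all tested genes. At leaf 3 of the WT-hpca1-WT chain, 9 members were still called without control replicate 3, and LHY, LNK1 and LNK2 then changed by 0.47, 0.30 and 0.26 where all libraries gave 0.52, 0.34 and 0.33.

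Several of the small changes rested on single libraries. In the WT-hpca1-WT chain, RVE8 was not called at S1 without control replicate 1 or 2 or elevated-light replicate 2 or 3 (0.13 to 0.19) and at S3 without replicate 1 of either group (0.17 and 0.18), LNK2 not at S1 without control replicate 1 (0.11), and PRR9 not at S3 without control replicate 1 (0.16). RVE4 was not called in the lit leaf of that chain without control replicate 1 or 3 or elevated-light replicate 1 or 2 (0.09 to 0.11). RVE6 was not called there without control replicate 2 (0.15), nor in the 3WT chain at S2 without control replicate 1 (0.13) or at S3 without elevated-light replicate 1 (0.15), and it was called at S3 of the WT-hpca1-WT chain without elevated-light replicate 2 (0.18). RVE8 was called at S2 of the 3WT chain without control replicate 3 or elevated-light replicate 1 (0.20 in each).

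**Figure D3:**
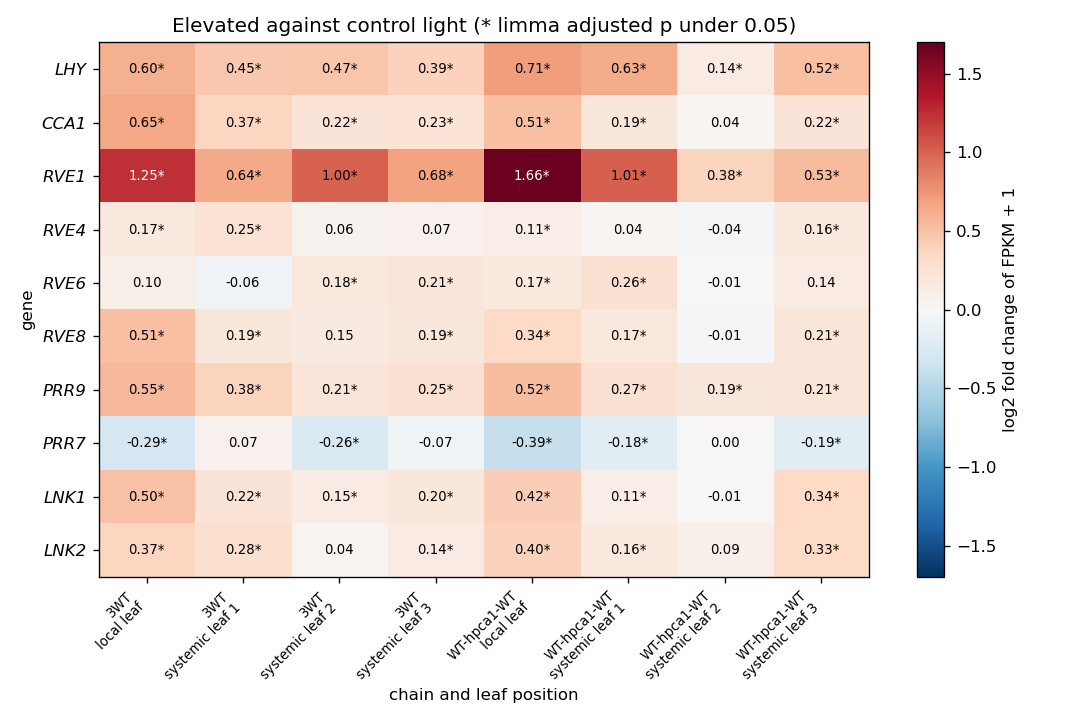
Log2 fold change of FPKM + 1, elevated against control light, for each member (rows) at each chain and leaf position (columns); colour and number give the value, and an asterisk a limma adjusted p under 0.05. RVE1 has the largest values, 1.25 and 1.66 in the lit leaves, PRR7 is below 0 wherever it was called, and the hpca1-1 leaf (WT-hpca1-WT, S2) has 3 called members.

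The hpca1-1 leaf differed from the wild-type leaf at the same place in how its morning genes stood after the light pulse. At S2, 3 of 10 members were called in the mutant leaf (LHY, RVE1 and PRR9, all higher), against 17.9% of all genes (6.21% higher, 11.7% lower). LNK2 was called there as well after median-of-ratios scaling, at 0.13. The difference of the light response between the chains, tested as an interaction, was called for 5 members, against 18.8% of all genes: LHY, CCA1, RVE1 and LNK1 responded less in the mutant leaf, and PRR7 differed in the other direction. Of all genes, 5.88% were called with the lower and 13% with the higher value in the WT-hpca1-WT chain, a split that median-of-ratios scaling turned, from 31.2% to 59.99% lower among the called.

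LHY was at 39.9, 41.6 and 41.0 FPKM in control light and 57.6, 55.4 and 57.4 in elevated light at this position of the 3WT chain, while the hpca1-1 leaf held 39.9, 37.1 and 38.7 in control and 41.1, 42.5 and 44.7 in elevated light. The wild-type libraries of the 2 conditions were far apart, while those of the mutant leaf lay side by side with a gap of little more than 1 FPKM. The changes were 0.47 and 0.14, and their difference was -0.32 ± 0.06 (SE; adjusted p in limma 0.000217). The small rise in the mutant leaf was no longer called without its control replicate 2 (0.12), without its elevated-light replicate 3 (0.11), or with only these 2 groups in the fit.

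RVE1 went from 5.12, 5.12 and 5.34 to 11.02, 11.2 and 12.0 FPKM in the wild-type leaf and from 5.996, 6.16 and 5.80 to 8.08, 8.59 and 7.59 in the mutant leaf. It rose in both, by 1.00 and 0.38, and less in the mutant leaf, with a difference of -0.62 ± 0.12 (SE; adjusted p in limma 0.000173). CCA1 rose in the wild-type leaf from 47.6, 52.3 and 49.0 to 56.1, 60.3 and 57.5 FPKM. In the mutant leaf it was at 52.5, 48.8 and 48.5 in control and 52.0, 53.1 and 48.6 in elevated light, with overlapping libraries, a change of 0.04 ± 0.04 (SE; adjusted p in limma 0.633; 95% interval -0.05 to 0.12). The difference for CCA1 was -0.18 ± 0.06 (SE; adjusted p in limma 0.0246), and it lost the call without any of 5 libraries (values of -0.18 to -0.15): control replicates 1 and 3 and elevated-light replicate 2 of the 3WT chain, control replicate 1 and elevated-light replicate 3 of the WT-hpca1-WT chain.

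PRR7 fell at this position of the 3WT chain, from 56.96, 60.7 and 59.4 to 47.0, 49.2 and 50.9 FPKM. The hpca1-1 leaf held 66.9, 64.7 and 61.8 FPKM in control and 64.7, 65.6 and 63.2 in elevated light, the highest group means of PRR7 in the experiment, with a light response that did not pass the threshold (0.00 ± 0.04, SE; adjusted p in limma 0.992; 95% interval -0.09 to 0.09). The difference was 0.27 ± 0.06 (SE; adjusted p in limma 0.00153). LNK1 rose slightly in the wild-type leaf, from 54.2, 58.5 and 59.4 to 63.5, 64.7 and 62.5 FPKM, and was at 61.8, 62.3 and 61.7 and 59.8, 62.2 and 62.6 in the mutant leaf, a difference of -0.16 ± 0.04 (SE; adjusted p in limma 0.00559).

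The remaining members gave no call for this difference, and their intervals show what the data leave possible: -0.10 ± 0.06 (SE; adjusted p in limma 0.308; 95% interval -0.22 to 0.03) for RVE4, -0.19 ± 0.08 (SE; adjusted p in limma 0.104; 95% interval -0.36 to -0.03) for RVE6 and -0.17 ± 0.09 (SE; adjusted p in limma 0.227; 95% interval -0.35 to 0.02) for RVE8. PRR9 rose in both leaves, by 0.21 and 0.19, with a difference of -0.02 ± 0.08 (SE; adjusted p in limma 0.9; 95% interval -0.18 to 0.14). In the mutant leaf the PRR9 call was lost without its control replicate 3 or its elevated-light replicate 2, with a value of 0.16 in each case. For LNK2 the difference was 0.05 ± 0.07 (SE; adjusted p in limma 0.699; 95% interval -0.09 to 0.18). After scaling by the median of ratios RVE4, RVE6 and RVE8 also passed the threshold, at -0.19, -0.28 and -0.26, which made 8 members called. RVE8 also passed it without elevated-light replicate 2 of the hpca1-1 leaf, at -0.25. With a chain as the only source of each leaf, the mutant genotype and the chain in which the plants stood cannot be told apart by this contrast.

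**Figure D4:**
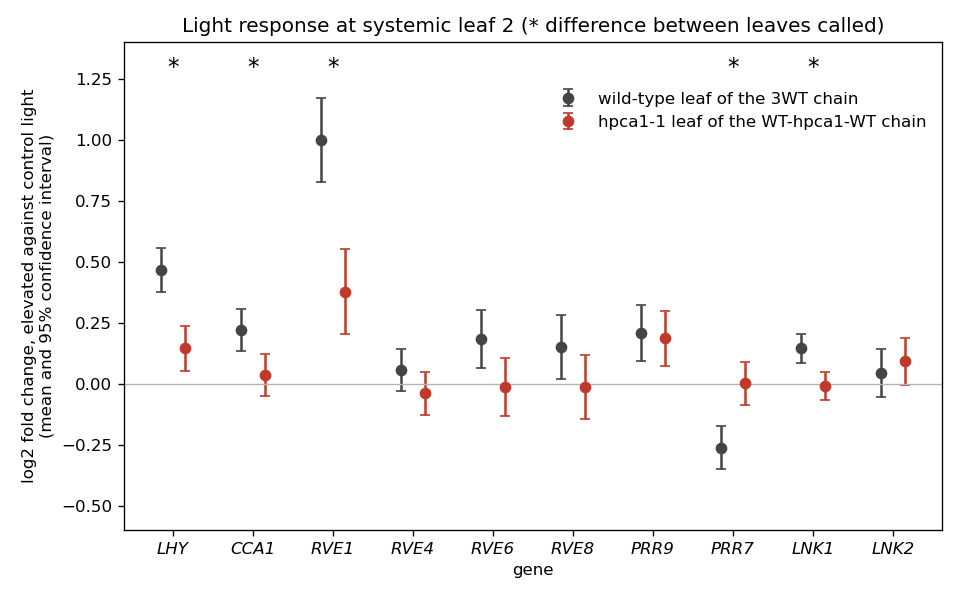
Log2 fold change of each member, elevated against control light, at S2 in the wild-type leaf of the 3WT chain (grey) and the hpca1-1 leaf (red); points are limma estimates from 3 libraries a group, bars 95% confidence intervals, and asterisks mark members whose difference between leaves was called. LHY, CCA1, RVE1 and LNK1 lie lower and PRR7 higher in the mutant leaf, and PRR9 has 0.21 and 0.19.

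The response differed between chains at wild-type positions too. In the lit local leaf 1 member was called, RVE1, whose rise was larger in the WT-hpca1-WT chain (0.42 ± 0.12, SE; adjusted p in limma 0.0136), against 15.3% of all genes (5.54% higher, 9.79% lower), and this call was lost without control replicate 3 of that chain (0.35). At S1, 6 members were called, 3 higher and 3 lower, against 23.2% of all genes (7.79% higher, 15.4% lower; after median-of-ratios scaling the share lower among the called went from 66.5% to 50.0%). There the response in the WT-hpca1-WT chain was larger for RVE1 (0.37 ± 0.12), RVE6 (0.31 ± 0.08) and LHY (0.17 ± 0.06) and smaller for RVE4 (-0.21 ± 0.06), CCA1 (-0.17 ± 0.06) and PRR7 (-0.25 ± 0.06), each as a log2 difference with its SE, and adjusted p-values in limma ran from 0.00244 for PRR7 to 0.0446 for LHY. After median-of-ratios scaling 4 were called, 3 higher and 1 lower: CCA1 (-0.11, limma adjusted p = 0.187) and RVE4 (-0.14, limma adjusted p = 0.0861) were not. Without elevated-light replicate 2 of the 3WT chain 3 of these 6 calls remained in number, and LHY, CCA1 and RVE1 then had differences of 0.17, -0.17 and 0.31. RVE1 lost its call without replicate 2 of any of the 4 groups (0.28 to 0.33). LHY lost it without any of 7 of the 12 libraries (0.12 to 0.17) and CCA1 without any of 5 (-0.17 to -0.15), and without control replicate 3 of the WT-hpca1-WT chain LNK1 was called as well, at -0.13. PRR7 at this leaf stood at 52.4, 54.3 and 53.5 FPKM in control and 55.1, 58.1 and 55.2 in elevated light of the 3WT chain, while the other chain held 49.1, 53.9 and 53.7 and 46.3, 46.2 and 45.6, a light response that was called only in the other chain, with values of 0.07 and -0.18.

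At S3, 2 members were called, LNK1 (0.14) and LNK2 (0.20), against 14.1% of all genes (8.37% higher, 5.74% lower, with the share lower among the called going from 40.7% to 52.0% after scaling). Neither was called without replicate 3 of the control leaves of the WT-hpca1-WT chain, the library that stood apart, where their values were 0.10 and 0.12, and PRR7 was called instead, at -0.19. LNK1 also lost the call without replicate 3 of either 3WT group (0.13 in each), and LNK2 in 8 of the 12 leave-one-out fits (0.12 to 0.21). LNK2 was at 193, 191 and 164 FPKM in those controls, the low value being that library, and at 237, 227 and 226 in elevated light.

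In control light between 0 and 4 of 10 members were called for a difference between the chains, depending on the leaf. S3 had 0 of 10 members called (also 0 without control replicate 3 of the WT-hpca1-WT chain, with values of -0.06 to 0.06), against 17.3% of all genes, the local leaf 1 (CCA1, 0.15), against 12.8%, S1 4 (CCA1 0.24, RVE4 0.15, LNK2 0.14 and LNK1 0.13), against 15.1%, and the hpca1-1 leaf at S2 3 (RVE4, PRR7 and LNK1), against 20.3%. All of these were higher in the WT-hpca1-WT chain. Of all genes, 7.97%, 7.39%, 7.83% and 5.62% were called higher at the local leaf, S1, S2 and S3. The CCA1 call at the local leaf was lost without control replicate 2 of the 3WT chain or control replicate 1 or 3 of the other (0.13 to 0.14), and that of LNK2 at S1 without any of 5 of the 6 libraries, all but replicate 1 of the WT-hpca1-WT chain (0.10 to 0.15). At S3, 0 of 10 members had an unadjusted p under 0.05 in limma, the smallest being 0.0589 for LNK2. The share lower among all called genes went from 37.6% to 52.8% at the local leaf, from 61.4% to 49.9% at S2 and from 67.5% to 56.2% at S3 after median-of-ratios scaling. RVE4 differed most in the mutant leaf. It held 54.2, 51.4 and 55.4 FPKM in the wild-type leaf and 62.4, 63.6 and 65.2 in the hpca1-1 leaf in control light, a difference of 0.24 ± 0.04 (SE; adjusted p in limma 3.28e-05). Every mutant library lay above every wild-type one. PRR7 and LNK1 differed there by 0.12 ± 0.04 and 0.11 ± 0.03 (SE), and without control replicate 1 of the 3WT chain neither was called, with values of 0.10 and 0.07. PRR7 was also not called without control replicate 3 of the 3WT chain (0.13) or control replicate 1 or 2 of the mutant leaf (0.10 and 0.12). LHY, CCA1, RVE1 and PRR9, by contrast with their light responses, gave -0.08, 0.01, 0.17 and 0.02 with no call.

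The rest of the clock was read beside the morning genes. Of 12 evening genes 11 were tested in the chains, and 7 of them fell in all 8 light comparisons, as did 1.18% of all genes: TOC1, PRR5 and PRR3, the evening pseudo-response regulators, GI, ELF3 and ELF4, of which the last pair belong to the evening complex, and the F-box photoreceptor FKF1. These names were picked after their values were seen. In the lit leaf of the 3WT chain 8 fell and 0 rose, against 45.3% of all genes called lower and 14% higher. The median of the 11 was -0.74 against -0.16 for all genes, and ELF4 (-2.53), FKF1 (-2.41) and ELF3 (-1.38) were among those that fell. Under the median-of-ratios scaling, 7 fell and 3 rose there. LUX, the third member of the evening complex, did not share this pattern: its values ran from -0.25 to 0.46 over the 8 comparisons.

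In the hpca1-1 leaf, where 3 morning members were called, 8 of the 11 evening genes fell and 0 rose. Of all genes, 11.7% were called lower there and 6.21% higher. The median of the 11 was -0.67 against -0.03 for all genes. FKF1 fell by 2.03, PRR3 by 1.86 and ELF4 by 1.63 on the log2 scale. The interaction at this position was called for 2 of the 11, LUX (-0.58) and CHE (0.31), a count near the 18.8% of all genes called. It was called for 5 of 10 morning members. At the wild-type positions more were called. At the local leaf 6 of 11 fell more in the WT-hpca1-WT chain, against 9.79% of all genes called lower. At S1 it was 7, with 1 called higher, against 15.4% of all genes lower and 7.79% higher. At S3 it was 8, against 5.74% lower, and PRR5 (-2.14), ELF4 (-1.41) and FKF1 (-1.30) differed most there. In control light 7 of the 11 were higher in the hpca1-1 leaf than in the wild-type leaf, led by FKF1 (1.13), PRR5 (0.97) and PRR3 (0.92). At wild-type S3 of that chain 7 were also higher, led by ELF4 (1.11), FKF1 (0.95) and PRR3 (0.69). Of all genes, 7.83% and 5.62% were called higher at these 2 leaves. In control light at the local leaf and S1, 5 and 4 of the 11 were higher in the WT-hpca1-WT chain and 0 lower. Of all genes, 7.97% and 7.39% were called higher there. Without control replicate 3 at S3 of the WT-hpca1-WT chain, a fit added after seeing the data, the difference of the light response there was called for 8 of 11, all lower (PRR5 -2.20, ELF4 -1.46 and FKF1 -1.24), 7 were still higher in control light (ELF4 1.16, FKF1 0.89 and PRR3 0.70), and 8 fell in elevated light where 10 had with all libraries. In control light with all libraries, 3 of the 10 morning members were called at S2 and 0 at S3.

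The close relatives of the members were 5 further RVE and RVE-like genes with LNK3 and LNK4. Of these 7, 5 rose in the lit leaf of the 3WT chain and 6 in that of the other, with RVE7 at 1.03 and 0.79. Of all genes, 14% and 13.6% were called higher in these leaves. All 7 relatives rose in both after median-of-ratios scaling. At S1, S2 and S3, between 2 and 5 of 7 rose in wild-type leaves, LNK3 in each of them, against 7.18% to 13.4% of all genes called higher. In the hpca1-1 leaf 0 rose and 1 fell, RVE3, at -0.63, against 6.21% of all genes called higher and 11.7% lower. After scaling 1 rose and 1 fell.

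Clock outputs moved in both directions. Of 15 genes, 5 fell in all 8 light comparisons, GRP7, GRP8, COR27, COR28 and CAT3, against 1.18% of all genes. In all 8, 1 rose, against 0.395% of all genes: CDF1, a repressor of flowering genes that is expressed in the morning. These names, too, were picked after their values were seen. GRP7, an RNA-binding protein, changed by -3.30 and -4.00 in the lit leaves and by -1.92 in the hpca1-1 leaf. Of 13 genes of light and temperature input, 9 fell and 2 rose in the 3WT lit leaf (6 and 3 after scaling by the median of ratios). Of all genes, 45.3% were called lower and 14% higher in that leaf. HSFB2B was at 2.00 and HY5 at 0.94. At the systemic leaves 2 to 6 fell and at most 1 rose, against 7.58% to 32.7% of all genes called lower and 6.21% to 13.4% higher. At S2 and S3 of the 3WT chain 4 and 2 fell, near the 32.7% and 14.1% of all genes called lower there. PHYA, the far-red photoreceptor, was the 1 gene of this list that fell in all 8 light comparisons.

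In the contact experiment a few morning genes were lower after 1 h of touch and a few higher after 1 week, with log2 fold changes between -0.49 and 0.65 over the comparisons where members were called. After 1 h 3 members fell and 0 rose, against 14.7% of all 17177 genes called and 5.73% called lower (9.02% higher). RVE1 was at 11.2, 11.9 and 12.5 FPKM in individual plants and 8.19, 7.29 and 9.02 after 1 h, a change of -0.49 ± 0.10 (SE; adjusted p in limma 0.00687). PRR9 went from 47.3, 46.2 and 49.2 to 37.1, 35.7 and 39.0 FPKM, a change of -0.34 ± 0.05 (SE; adjusted p in limma 0.00106). Its near copy AT2G46670 had means of 22.7 FPKM in individual plants, 17.3 after 1 h and 18.3 after 1 week. RVE8 went from 19.7, 18.5 and 21.3 to 16.9, 15.8 and 17.4 FPKM, a change of -0.23 ± 0.07 (SE; adjusted p in limma 0.0463). The libraries of these 3 genes did not overlap between the groups, but neither did those of LHY and CCA1, which were not called. The share of all genes without overlap was not computed. The RVE8 call was lost without any of 5 of the 6 libraries, individual replicates 1 and 3 and all 3 of 1 h, with values of -0.26 to -0.18. LHY was at 28.6, 25.6 and 25.6 FPKM after 1 h against 24.2, 23.5 and 24.5 in individual plants, a difference that did not pass the threshold (0.14 ± 0.05, SE; adjusted p in limma 0.136; 95% interval 0.02 to 0.26).

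After 1 week 4 members rose, LHY, LNK1, PRR9 and CCA1, against 14.8% of all genes called and 9.56% called higher (5.29% lower). LHY reached 31.6, 32.8 and 32.7 FPKM, above every individual and every 1 h library, with a change against individual plants of 0.41 ± 0.05 (SE; adjusted p in limma 0.000413). LNK1 was at 92.9, 89.5 and 91.6 FPKM against 82.4, 76.1 and 82.6, a change of 0.18 ± 0.04 (SE; adjusted p in limma 0.0139). CCA1 (0.12, limma adjusted p = 0.0486) and PRR9 (0.18, limma adjusted p = 0.0493) passed the threshold barely: PRR9 was not called with any 1 of the 6 libraries left out (0.13 to 0.20) and CCA1 was called in this test only without individual replicate 2 (otherwise 0.11 to 0.14).

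Between the contact times 7 members were higher at 1 week than at 1 h and 0 lower, against 22.1% of all genes (12.4% higher, 9.66% lower). Median-of-ratios scaling moved the share lower among all called genes from 43.7% to 52.3% and left 7 members higher. PRR9 was at 52.0, 57.6 and 52.3 FPKM at 1 week and 37.1, 35.7 and 39.0 at 1 h, a difference of 0.52 ± 0.05 (SE; adjusted p in limma 3.53e-05), and RVE1 at 13.6, 15.0 and 11.5 and 8.19, 7.29 and 9.02, a difference of 0.65 ± 0.10 (SE; adjusted p in limma 0.00078). The libraries of both genes were apart. PRR7, not called with all libraries, was called without 1 week replicate 2, at 0.18. RVE8 (0.35), LHY (0.28), RVE4 (0.22), LNK1 (0.21) and CCA1 (0.17) were also higher. With all libraries RVE6, PRR7 and LNK2 were called in no contact comparison, and the change of LNK2 at 1 week was 0.00 ± 0.04 (SE; adjusted p in limma 0.98; 95% interval -0.08 to 0.08).

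**Figure D5:**
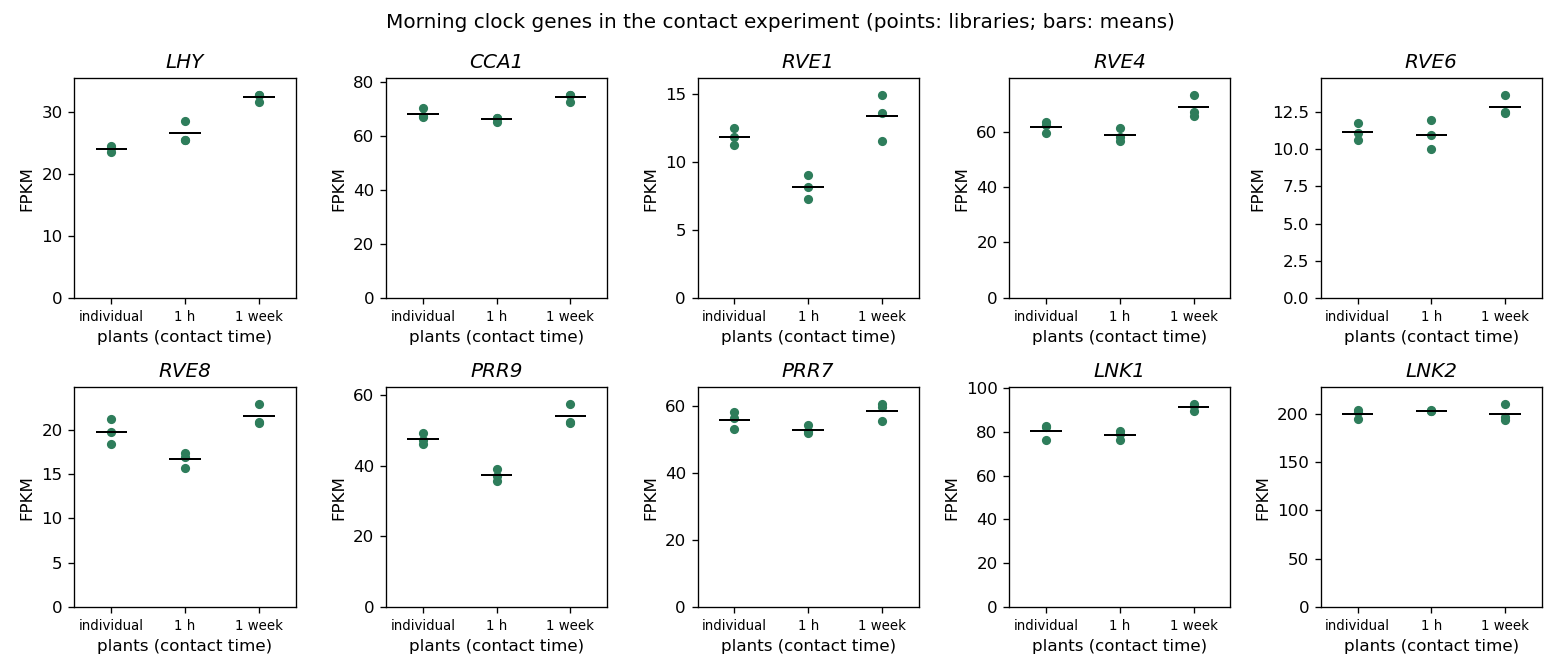
FPKM of each member (y axes, starting at 0) in individual plants and after 1 h or 1 week of contact (x axes); points are libraries and bars means of 3. RVE1 and PRR9 are lowest after 1 h, with means of 8.17 and 37.3 FPKM, and LHY is highest after 1 week, with a mean of 32.4 FPKM.

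Among other clock genes, TOC1 rose by 0.70 and CHE, a repressor of CCA1, by 0.39 at 1 h, while RVE3 and RVE7 fell by 0.38 each on the log2 scale. The counts that follow stand beside the shares of all genes. At 1 h, 9.02% of all genes were called higher and 5.73% lower, and at 1 week 9.56% higher and 5.29% lower. Of 10 evening genes tested, 2 were higher at 1 h and 3 at 1 week, with 0 lower at either time. Of the 7 relatives, 3 were lower at 1 h and 1 was higher at 1 week. Of 13 outputs, 3 were higher and 6 lower at 1 h, led by GRP7 (-0.77), CBF3 (-0.74) and CBF2 (0.67), and 4 were higher and 1 lower at 1 week, led by CDF2 (0.76) and GRP8 (-0.51). Of 13 input genes, 1 was higher at 1 h and 2 at 1 week, CRY2 and PHYA, by 0.24 each. The tables were normalized separately and no test was made between them. PRR9 stood at group means of 37.3 to 54.0 FPKM in the contact table and 16.5 to 24.9 in the chain table, with LHY the other way, 24.1 to 32.4 and 36.2 to 64.5.

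Over the 16 group means of the chain experiment, which share a normalization and the light treatment, Pearson correlations among the members ran from -0.80 to 0.95 with a median of 0.65 over 45 pairs. Without PRR7 the 36 pairs ran from 0.32 to 0.95, and all 9 pairs with PRR7 were below 0. Among 12468 candidate genes, the one most like LHY was GSTU18, a glutathione transferase (r = 0.96), the one most like CCA1 was SPA3, a partner of the COP1 repressor of light signalling (r = 0.96), and the one most like RVE1 was CDF1 (r = 0.97). LNK3 was most like both RVE8 (r = 0.94) and LNK2 (r = 0.96), PRR9 was most like its near copy AT2G46670 (r = 0.95), and LNK1 was most like MIPS1, an enzyme of inositol synthesis (r = 0.94). RVE4, RVE6 and PRR7 had ALDH11A3, SIP2 and AT1G33970 as their nearest genes, with r of 0.94, 0.92 and 0.95. For the mean of CCA1 and LHY the nearest were AT5G50100, GBSS1, LNK3, AXR3 and SQE3, with r of 0.95 to 0.96. These values describe 16 points and carry no test.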

How the data were processed

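RNA of 57 leaf libraries had been sequenced, 9 for contact and 48 for the chains. The authors deposited FPKM values per gene and library, in one table for each experiment. Per the submitters' processing notes, the tools were Trim Galore 0.6.10, FastQC 0.12.1, HISAT2 2.2.1, SAMtools 1.18, Cufflinks 2.2.1 and Cuffdiff 2.2.1, with TAIR10; strand and multi-read settings are not given in the sources used here. FPKM keeps no fragment totals, so no counting intervals were computed.

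Values were taken to log2(FPKM + 1), which understates changes of low genes. A gene was tested where 3 or more libraries reached FPKM 1, which left 17177 genes for contact and 18735 for the chains. Each table was fitted by limma 3.58.1 (R 4.3.3) with 1 mean per group and eBayes with trend (two-sided, Benjamini-Hochberg within each of 19 comparisons, called at an adjusted p under 0.05), and it was tested on simulated data. Replicates are labelled as separate biological repeats.

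The 10 members and all gene lists were chosen with earlier results of these data known. All members are named; of other lists, at most 3 called genes per comparison with the largest change and at least 5 FPKM are named, with exceptions stated. Promoter windows and gene positions come from TAIR10.1, in place of the promoter table first planned. Near copies were searched with blastn 2.17.0 (at least 90% identity over at least 100 bases). Alternatives covered the pseudocount, filter, trend, scaling, samples in the fit, replicate block and each replicate left out.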

Additional observations from a re-analysis of the deposited data

Results flagged for a closer look

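Each of 21 results is listed because the effect differed between 2 groups by a test of the difference itself, here limma contrasts with an adjusted p under 0.05, given as log2 differences. For the light response of the WT-hpca1-WT chain minus that of the 3WT chain, these were RVE1 in the local leaf (0.42). At S1 they were LHY (0.17), CCA1 (-0.17), RVE1 (0.37), RVE4 (-0.21), RVE6 (0.31) and PRR7 (-0.25). Of these, CCA1 and RVE4 were not called after median-of-ratios scaling, and LHY was not called without trend, with no filter, after quantile normalization or with only the groups compared in the fit, where RVE1 was not called either. At S2, the hpca1-1 leaf, they were LHY (-0.32), CCA1 (-0.18), RVE1 (-0.62), PRR7 (0.27) and LNK1 (-0.16), of which CCA1 was not called with only the groups compared. At S3 they were LNK1 (0.14) and LNK2 (0.20); neither was called with only the groups compared, and LNK2 not without trend, with no filter, or after median-of-ratios scaling or quantile normalization. Between 1 week and 1 h of contact the effects against individual plants differed for LHY (0.28), CCA1 (0.17), RVE1 (0.65), RVE4 (0.22), RVE8 (0.35), PRR9 (0.52) and LNK1 (0.21). The contact effects share the individual plants, so each of these differences equals 1 week minus 1 h.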

How the results depend on the processing

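Over 190 tests of single members, the call was the same in 188 with a pseudocount of 0.1, 188 with the filter at FPKM 5, 182 with no filter, 182 without trend, 177 after median-of-ratios scaling, 179 after quantile normalization and 166 with only the groups compared in the fit; no call reversed. The members called for 1 week against individual plants, 4 as reported, were 1 without trend and 2 with median-of-ratios scaling, with only the groups compared, with a pseudocount of 0.1 and with the replicate block. For the chains in control light, the 1 call in the local leaf became 0 after quantile normalization, and the 3 at S2 became 1 with only the groups compared. For light at S3 of the WT-hpca1-WT chain, 9 became 4 with only the groups compared. For the difference of the light response, 5 at S2 became 8 with median-of-ratios scaling, and 2 at S3 became 1 without trend, with median-of-ratios scaling, with no filter and after quantile normalization, and 0 with only the groups compared. The causes of these moves were not tested, though fits with only the groups compared have fewer samples.

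With 1 replicate left out at a time, the members called ranged from 2 to 3 for 1 week against individual plants, 0 to 1 and 1 to 3 for control light at the local leaf and S2, and, for the difference of the light response, 0 to 1 at the local leaf, 3 to 6 at S1 and 0 to 2 at S3. Same-numbered libraries had r of -0.09 to 0.15 over 15 comparisons, with every pair over 0.1 in 0 of them, so the numbers were not taken to pair them, though in 2 comparisons every sample correlated best with its own number, a hint from the data. The replicate block gave the same call in 187 of 190 tests, with 2 calls lost and 1 gained. In windows reaching 1000 bases before the start, chosen after seeing the data, the G-box remained in 8 members (15.9% of windows), the evening element in 1 (7.65%), and the CCA1 binding site was in 3 (22.1%). Depth is unknown, so no limit set by counting error can be given.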
